A study of Mus musculus with 10 samples.

Results

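The 10 genes Cfd, Adipoq, Lep, Retn, Plin1, Cidec, Plin4, Fabp4, Lpl and Pck1 are widely used markers of fat cells, and they were taken by symbol from an mRNA table of 24736 gene symbols, in which all 10 were found. The table was made from whole eyeballs of female Kunming (KM) mice, an outbred stock, with an age label of 4 weeks. The blue-light group comprised 3 libraries (A, B and C) from mice lit by an 18 W Philips PL-L lamp inside a dark container, and the natural-light group 2 libraries (A and B). Titles of both groups carry day 14, no genotype or transgene is given, and the labels do not say whether a library is 1 animal or a pool. Replicates are therefore separate samples only by label, and p-values cover only the spread from library to library, part or all of which may be technical. The labelled tissue is the eyeball. Whether fat of the orbit was left on it is not stated, so the 10 genes are called adipocyte genes here by their known use and not by a dissected tissue.

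Adipocytes store triglyceride in 1 large lipid droplet, which is coated by perilipins and enlarged by CIDE proteins. They take up fatty acids that lipoprotein lipase releases at the capillary wall, re-esterify them on glycerol 3-phosphate made in part through phosphoenolpyruvate carboxykinase, and secrete hormones such as leptin and adiponectin. Fat pads lie behind the eyeball and between the eye muscles, while the retina, lens and cornea hold no adipocytes. Several of the genes are also active elsewhere: Fabp4 in macrophages and capillary endothelium, Lpl in muscle, heart and macrophages, Plin4 in muscle, and Pck1 in liver and kidney.

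Under blue light 1 of the 10 genes rose and 0 fell when edgeR's quasi-likelihood F-test was applied to all 18988 genes that passed the low-count filter (Benjamini-Hochberg adjusted p below 0.05). The gene that rose was Cfd, which stood 5.86-fold above natural light. Among all tested genes 0.664% rose and 1.55% fell. In bulk eyeball RNA, fewer cells of a type and less RNA per cell cannot be told apart, and the share of attached fat, muscle or gland cannot be told apart from light. Every library held some of the 10 transcripts, but leptin and Cidec were at 0 in both natural-light libraries. In blue-light A and C, 9 of the 10 genes lay above both natural-light libraries, whereas in blue-light B 5 did. The exception in A and C was resistin (Retn). Over all tested genes 22.1% had blue-light A and C both above natural light. The share for blue-light B was not counted, so its 5 has no background beside it. Cidec, Lep and Pck1 passed the low-count filter through blue light alone. All of them enter the 9, and Cidec and Pck1 enter the 5, so these counts describe the genes without supporting a change.

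Levels below are estimated counts scaled by TMM library sizes and given as CPM, the usual depth-normalised count. A log2 fold change (log2FC) is blue light minus natural light, and its standard error (SE) was derived from edgeR's F statistic, as the size of the log2FC over the root of F. The estimated counts of a library, called units here, summed to 99253431, 102602360 and 93202801 in blue-light A, B and C, against 107660103 and 87071487 in natural-light A and B. About 4 units were taken as 1 sequenced fragment, an estimate from the low values, so the least abundant genes rest on few fragments. Transcript lengths were not used, so levels are compared between libraries and not between genes.

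Cfd encodes adipsin, also known as complement factor D, a serine protease that fat cells secrete and that starts the alternative complement pathway. It lies on chromosome 10 from 79890853 to 79892655 (GRCm38, the assembly called mm10), and no other annotated gene overlaps it. Its level was 2.01, 1.14 and 2.22 CPM in blue-light A, B and C, against 0.287 and 0.321 CPM in natural-light A and B. The lowest blue-light library lay well above both natural-light libraries, which were close to each other. The means were 1.79 ± 0.574 CPM under blue light (SD, n = 3) and 0.304 ± 0.0240 CPM under natural light (SD, n = 2), and the log2FC was 2.55 (SE 0.42, edgeR adjusted p = 0.0468). This call lay near the threshold. In edgeR it held without blue-light B (adjusted p = 0.0405), and was lost without blue-light A (0.103), blue-light C (0.156), natural-light A (0.266) or natural-light B (0.189), with log2FC between 2.37 and 2.81 over these 5 fits. The 250 bases before its annotated start hold none of the motifs searched below.

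Adiponectin (Adipoq), the most abundant hormone of fat cells, which raises insulin sensitivity, is encoded on chromosome 16 from 23146536 to 23157968. It stood at 1.04, 0.326 and 1.12 CPM in blue-light A, B and C, against 0.0719 and 0.371 CPM in natural-light A and B. Blue-light B lay between the natural-light libraries, so the groups overlapped. Its log2FC was 1.92 (SE 0.89, edgeR adjusted p = 0.365), with a range of 1.18 to 3.50 when 1 library was left out.

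Leptin (Lep), the hormone that signals fat stores to the brain, lies on chromosome 6 from 29060221 to 29073876. It reached 0.426 CPM in blue-light A and 0.275 CPM in blue-light C, and it was at 0 in blue-light B and in both natural-light libraries. These 2 levels came from 43 and 25 units, or about 10.8 and 6.25 fragments. Against a floor of 3 fragments, or 12 units, over both natural-light libraries together, the blue-light mean was at least 3.74-fold higher, but blue-light B was itself at 0 and edgeR's adjusted p was 0.318. DESeq2 gave leptin no adjusted p. Leptin passed the low-count filter through the blue-light libraries alone, so its bound describes it without supporting a change.

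Resistin (Retn), a cysteine-rich hormone that mouse fat cells secrete and that opposes insulin action, was the single member with a negative log2FC. On chromosome 8 (3655770 to 3659818), it stood at 1.19, 0.931 and 1.47 CPM in blue-light A, B and C, against 1.56 and 2.05 CPM in natural-light A and B. The groups did not overlap, but the gap between blue-light C and natural-light A was small. The log2FC was -0.59 (SE 0.31, edgeR adjusted p = 0.414), and it stayed negative in all 14 alternatives that gave a value, from -0.77 to -0.39.

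**Figure D1:**
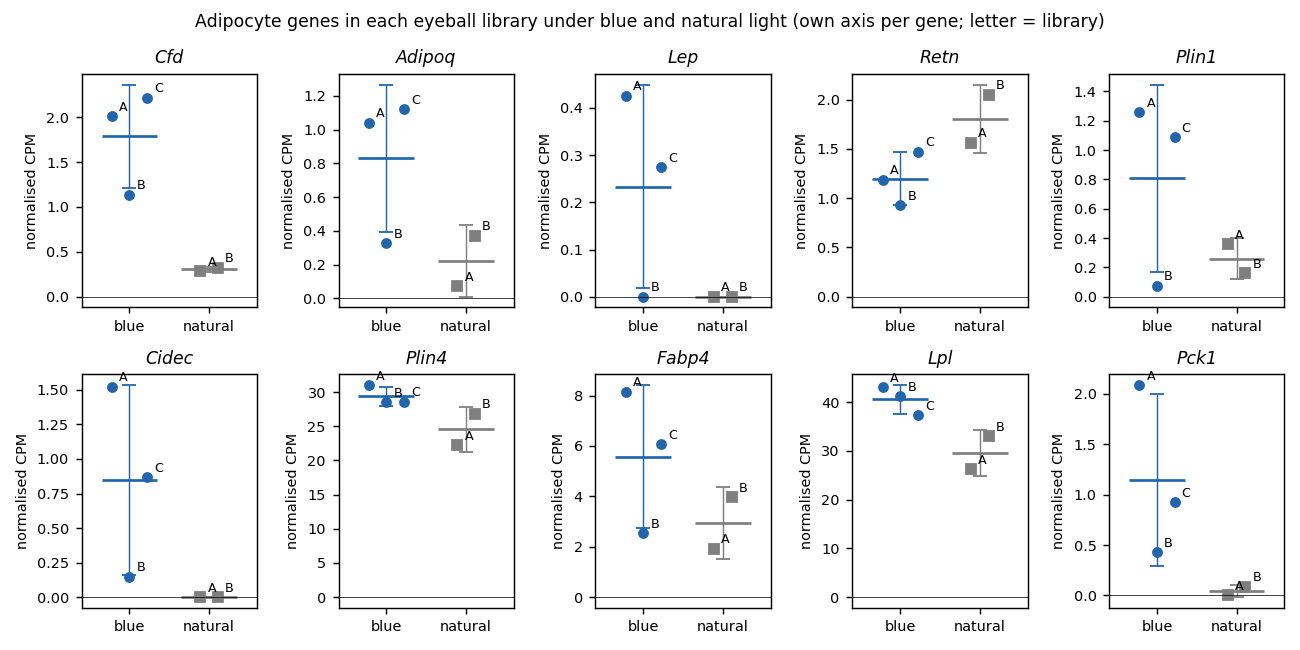
Level of each of the 10 genes in CPM (vertical axes, each starting near 0 and with its own scale) in the 3 blue-light libraries (circles) and the 2 natural-light libraries (squares), lettered by library, with group mean and SD. Blue-light B is the lowest blue-light library for every gene except Lpl, and Cidec and Lep are at 0 in both natural-light libraries.

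Plin1 and Cidec act together at the lipid droplet. Perilipin 1 (Plin1; chromosome 7, 79721164 to 79732904) coats the droplet of fat cells and gates lipolysis. It was present at 1.26, 0.0745 and 1.09 CPM in blue-light A, B and C, against 0.359 and 0.161 CPM in natural-light A and B. Blue-light B was the lowest of all 5 libraries, with 8 units, and blue-light A exceeded it 16.9-fold. With that spread inside the group, the log2FC of 1.61 had an SE of 1.13 (edgeR adjusted p = 0.552).

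Cidec, which fuses lipid droplets into 1 large droplet, had 1.52, 0.149 and 0.868 CPM in blue-light A, B and C and 0 in both natural-light libraries. All 3 blue-light libraries therefore lay above natural light, blue-light B with 16 units or about 4 fragments. The blue-light mean was at least 13.6-fold higher than the same floor of 12 units. In edgeR the gene missed the threshold (adjusted p = 0.117), and in DESeq2 it passed (adjusted p = 5.05e-05). Cidec passed the low-count filter through the blue-light libraries alone, so it had to differ. Its bound and its DESeq2 call therefore describe it without supporting a change. Its span on chromosome 6 (113424634 to 113435760) overlaps the noncoding gene Gm52871 (113434505 to 113437598), and whether counting used strand is not stated, so reads of the pair cannot be told apart.

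Perilipin 4 (Plin4), a droplet-coat protein of fat and muscle, was far steadier. It stood at 31.0, 28.6 and 28.6 CPM in blue-light A, B and C, against 22.2 and 26.9 CPM in natural-light A and B. The groups did not overlap, although the step from natural-light B was small. Its log2FC was 0.26 (SE 0.11, edgeR adjusted p = 0.330). On chromosome 17 (56100587 to 56109948) its end overlaps that of Hdgfl2 (56079599 to 56100605), which had a log2FC of -0.11 (edgeR adjusted p = 0.655).

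The next 3 genes handle fatty acids and their glycerol backbone. Lipoprotein lipase (Lpl; chromosome 8, 68880555 to 68906932) frees fatty acids from circulating triglyceride. It was found at 43.1, 41.2 and 37.3 CPM in blue-light A, B and C, against 26.3 and 33.0 CPM in natural-light A and B. All 3 blue-light libraries were above natural light. The log2FC was 0.45 (SE 0.13), which edgeR did not call (adjusted p = 0.164) and DESeq2 did (adjusted p = 0.0151).

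Fabp4 (chromosome 3, 10204342 to 10208616), the fatty acid carrier of fat cell cytosol, was measured at 8.15, 2.53 and 6.06 CPM in blue-light A, B and C, against 1.92 and 3.97 CPM in natural-light A and B. Blue-light B fell between the natural-light libraries. The log2FC was 0.92 (SE 0.56, edgeR adjusted p = 0.482).

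Pck1 makes phosphoenolpyruvate from oxaloacetate, which in fat cells feeds glycerol 3-phosphate synthesis. It lies on chromosome 2 from 173153073 to 173159274. It stood at 2.09, 0.428 and 0.923 CPM in blue-light A, B and C, against 0 and 0.0865 CPM in natural-light A and B. The groups were fully separated, with natural light resting on 7 units, or about 2 fragments. Taking 4 units as 1 fragment, the ratio of blue to natural light was 27.3 (exact Clopper-Pearson interval at 95% confidence, 7.33 to 229, counting error only). Between libraries the spread was wide, and edgeR's adjusted p was 0.162. DESeq2 called the gene (adjusted p = 0.00147), and so did edgeR with the skeletal muscle level as a covariate (adjusted p = 0.0385). Pck1 passed the low-count filter through the blue-light libraries alone, so it had to differ. The separation, ratio, interval and calls therefore describe it without supporting a change.

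Counted over the 10 genes, 5 had non-overlapping groups with blue light higher (Cfd, Cidec, Pck1, Plin4 and Lpl) and 1 with blue light lower (Retn). The matching shares of all tested genes were 15.6% and 20.1%. A positive log2FC was fitted for 9 of the 10 and for 49.0% of all tested genes. In edgeR 4 of the 10 were higher and 0 lower at an unadjusted p under 0.05, beside 7.03% and 9.27% of all tested genes. DESeq2 called 4 (Cfd, Cidec, Lpl and Pck1), all higher, beside 4.73% of the genes it gave an adjusted p. Limma-voom called 0 of the 10, with 5 at an unadjusted p under 0.05, beside 3154 of all 18988 tested genes. The median log2FC was 1.77, or 1.76 with Cidec and Lep set to their bounds, and that of all tested genes was -0.0056. All 10 passed the low-count filter, but Cidec, Lep and Pck1 passed it through the blue-light libraries alone, so they had to differ, and these counts and this median describe the genes without supporting a change.

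**Figure D2:**
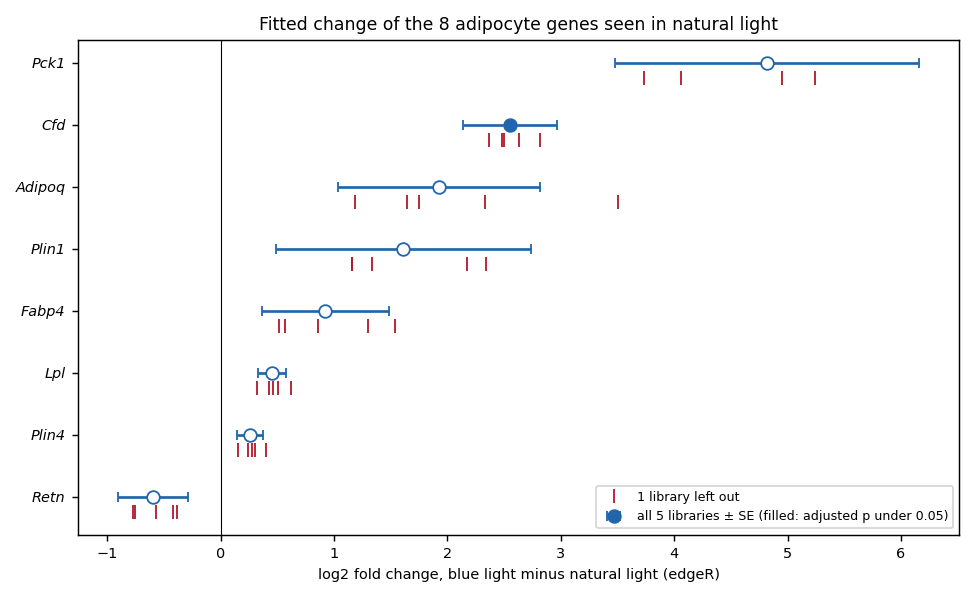
Fitted log2FC (horizontal axis, blue minus natural light) of the 8 genes with any units under natural light, as circles with SE bars and red ticks for fits without 1 library. Only Cfd, at 2.55, passed the threshold with all 5 libraries, and Retn alone lies below 0. For Pck1 the fit without natural-light B is left out, because natural-light A alone is at 0.

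The genes differed in spread. Plin4 and Lpl varied least, with the highest blue-light library 1.09-fold and 1.16-fold above the lowest, and Retn followed at 1.58-fold. For the others that ratio was 1.95 for Cfd, 3.22 for Fabp4, 3.44 for Adipoq, 4.87 for Pck1, 10.2 for Cidec and 16.9 for Plin1, and leptin was at 0 in blue-light B. Lpl and Plin4 were summed apart from the rest, a choice made after their values were seen. Together they summed to 74.2, 69.8 and 65.9 CPM in blue-light A, B and C, against 48.5 and 59.9 CPM in natural-light A and B. The other 8 summed to 17.7, 5.58 and 14.0 CPM in blue-light A, B and C, against 4.20 and 6.96 CPM in natural-light A and B. The place of blue-light B between the natural-light libraries in the sum of the 8 rested on Fabp4. Without that gene the other 7 summed to 9.53, 3.05 and 7.96 CPM in blue-light A, B and C, against 2.28 and 2.99 CPM in natural-light A and B, which puts blue-light B just above both. That place rested in turn on Pck1 and Cidec, at 0.428 and 0.149 CPM in blue-light B, which passed the low-count filter through blue light alone. Without them blue-light B would again lie between the natural-light libraries.

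The libraries did not follow 1 order over the 10 genes. The full order of their mean, from blue-light A, C and B to natural-light B and A, held for 2 of 10, beside 2.6% of all tested genes. Blue-light B was the lowest blue-light library for 9 of 10, for Plin4 by a margin too small to show at 3 digits, and this holds for 33.2% of all tested genes. Blue-light A was the highest of the 5 libraries for 7 of 10, beside 24.4% of all tested genes, and blue-light C for Adipoq and Cfd. Natural-light A was the lowest or tied lowest for 8 of 10, beside 24.2%. The genes are read from the same 5 libraries, so these are counts over genes and not replicates of the condition. Cidec, Lep and Pck1 were highest in blue-light A and at 0 in natural-light A. They passed the low-count filter through blue light alone, so the counts that include them do not support a change.

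Promoter windows of the genes were searched for short motifs. RefSeq windows (GRCm38.p6) were found for 8 of the genes, 9 windows in all because Cidec has 2 annotated starts. The 250 bases before each start were searched on both strands for TTGCNNAA (a C/EBP element), AGGTCA (a nuclear receptor half-site), the direct repeat of that half-site with 1 base between the copies, TATAAA and CCAAT. TTGCNNAA occurred in the windows of Lep, Plin1 and Cidec, 3 of 9, and in 9.56% of all 32851 windows. CCAAT occurred in those of Adipoq and Plin4, 2 of 9, and in 33.8% of all windows. TATAAA (12.4% of all windows), AGGTCA (14.0%) and the direct repeat (0.0335%) occurred in 0 of 9.

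The windows with TTGCNNAA, in capitals, are given here because 3 of the low-level genes share it, beside that of Cfd, the gene that rose, which holds no motif. All read 5′ to 3′ on the gene's own strand, and each ends at the base before the start. They are Lep (chr6:29059971-29060220, plus strand), Plin1 (chr7:79732777-79733026, minus strand), the inner start of Cidec (chr6:113434765-113435014, minus strand) and Cfd (chr10:79890603-79890852, plus strand).
Lep: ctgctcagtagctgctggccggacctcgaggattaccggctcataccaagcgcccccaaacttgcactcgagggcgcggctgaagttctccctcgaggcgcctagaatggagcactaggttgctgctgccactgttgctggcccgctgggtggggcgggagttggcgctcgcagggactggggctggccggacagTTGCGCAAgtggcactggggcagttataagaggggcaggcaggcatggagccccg
Plin1: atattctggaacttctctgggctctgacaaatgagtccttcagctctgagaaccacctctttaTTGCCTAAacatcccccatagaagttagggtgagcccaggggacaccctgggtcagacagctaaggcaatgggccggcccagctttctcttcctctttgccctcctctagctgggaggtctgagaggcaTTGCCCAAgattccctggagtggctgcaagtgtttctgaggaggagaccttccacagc
Cidec: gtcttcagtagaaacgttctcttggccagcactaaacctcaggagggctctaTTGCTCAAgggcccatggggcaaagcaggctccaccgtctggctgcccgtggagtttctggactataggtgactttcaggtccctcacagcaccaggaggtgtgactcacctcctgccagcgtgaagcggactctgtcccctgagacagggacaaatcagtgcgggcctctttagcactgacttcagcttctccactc
Cfd: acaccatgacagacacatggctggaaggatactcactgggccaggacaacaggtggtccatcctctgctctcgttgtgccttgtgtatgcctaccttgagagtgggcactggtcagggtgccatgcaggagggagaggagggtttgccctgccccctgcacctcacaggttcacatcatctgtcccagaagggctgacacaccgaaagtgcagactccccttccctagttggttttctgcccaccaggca
The element of Lep, TTGCGCAA, is its own reverse complement and begins 55 bases before the start. Plin1 has 2, which begin 187 and 58 bases before it, and Cidec has 1, which begins 198 bases before its inner start. A match is a description of the letters and not evidence of binding.

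Pathway genes around the 10 were counted from lists of related function. The genes of these lists that edgeR called are named, those called by DESeq2 or limma-voom alone are only counted unless the naming rule takes them, and 2.22% of all tested genes were called in either direction by edgeR, 2.41% by limma-voom and 9.67% by DESeq2. The receptor and adipokine list held 12 tested genes, of which 0 rose and 1 fell in edgeR, with 3 higher and 2 lower before adjustment (p under 0.05), while DESeq2 called 5 and limma-voom 1. Adipor1, a receptor of adiponectin that is expressed in many tissues, stood at 167, 212 and 180 CPM in blue-light A, B and C, against 306 and 307 CPM in natural-light A and B. No blue-light library reached the natural-light level, and its log2FC was -0.72 (SE 0.11, edgeR adjusted p = 0.0391). It therefore fell while its ligand gene Adipoq had a positive, uncalled log2FC. The peptide hormone gene Apln had a log2FC of -1.14 (edgeR adjusted p = 0.123). The 3 genes higher before adjustment were Nampt, Cdh13 and Rbp4. Their log2FC were 0.54, 1.02 and 1.57 (edgeR adjusted p = 0.129, 0.130 and 0.142).

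Among 12 transcription factors of fat cell formation 1 rose and 0 fell in edgeR, with 3 higher and 1 lower before adjustment, 3 calls in DESeq2 and 1 in limma-voom. Cebpd, an early factor of that program that is also induced in inflammation, stood at 27.2, 41.7 and 33.0 CPM in blue-light A, B and C, against 6.03 and 5.56 CPM in natural-light A and B. Its log2FC was 2.55 (SE 0.21, edgeR adjusted p = 0.0137), and its highest library was blue-light B, the lowest blue-light library for 9 of the 10 adipocyte genes. Its span overlaps that of Spidr, and strand was not stated. Pparg, the master regulator of fat cells, was at 2.23, 1.53 and 1.29 CPM in blue-light A, B and C, against 1.68 and 1.20 CPM in natural-light A and B. These groups overlapped (log2FC 0.22, edgeR adjusted p = 0.812).

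The lists of lipid droplet, lipolysis, triglyceride synthesis, fatty acid synthesis, fatty acid uptake and insulin response genes gave 0 calls in edgeR. Pnpla3, a lipid droplet hydrolase that edgeR did call, stands on the list of other fat cell markers. Of 11 tested lipid droplet genes 2 had an unadjusted p under 0.05, both higher, DESeq2 called 1 and limma-voom 0. Plin2, the perilipin of most cell types, stood at 18.3, 14.8 and 20.2 CPM in blue-light A, B and C, against 11.4 and 12.2 CPM in natural-light A and B (log2FC 0.59, edgeR adjusted p = 0.142). Of 11 tested lipolysis genes 2 were higher and 1 lower before adjustment (p under 0.05), with 1 call in DESeq2 and 0 in limma-voom. Pde3b, the phosphodiesterase through which insulin restrains lipolysis, led that list with a log2FC of 1.04 (edgeR adjusted p = 0.0632). The fat cell adrenergic receptor Adrb3 was at 0.544, 0.298 and 0.286 CPM in blue-light A, B and C, against 0.0719 and 0 CPM in natural-light A and B (edgeR adjusted p = 0.238). Adrb3, counted among the 2 higher lipolysis genes, also passed the low-count filter through blue light alone, so its values do not support a change.

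Of 11 tested triglyceride synthesis genes 2 were higher and 2 lower before adjustment (p under 0.05), while DESeq2 called 2 and limma-voom 0. Lpin1, a phosphatidate phosphatase, had a log2FC of -0.35 (edgeR adjusted p = 0.101). Of 12 genes of fatty acid synthesis 1 was higher and 1 lower at an unadjusted p under 0.05, and DESeq2 and limma-voom called 1 and 0. Malic enzyme (Me1) had a log2FC of -0.34 (edgeR adjusted p = 0.146). Of 12 fatty acid uptake genes 2 were higher before adjustment (p under 0.05), while DESeq2 called 2 and limma-voom 0. These 2 were the caveolins Cav2 and Cav1, with log2FC of 0.43 and 0.30 (edgeR adjusted p = 0.0956 and 0.112). Of 9 tested insulin response genes 2 were higher and 1 lower before adjustment (p under 0.05), while DESeq2 called 2 and limma-voom 0.

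Fat cell markers other than the 10 were counted in the same way. Of 20 such markers 19 were tested, and 0 rose and 1 fell in edgeR, with 3 higher and 1 lower before adjustment, 3 calls in DESeq2, 1 in limma-voom and a median log2FC of 0.21. Adrb3, counted among the 3 higher, passed the low-count filter through blue light alone. The gene that fell was Pnpla3, also expressed in liver, whose span overlaps those of Mir6392 and Gm20369. It stood at 19.6, 19.8 and 20.3 CPM in blue-light A, B and C, against 36.0 and 46.9 CPM in natural-light A and B. All blue-light libraries lay below natural light (log2FC -1.06, SE 0.13, edgeR adjusted p = 0.0225). The hormone-sensitive lipase gene Lipe stood at 18.6, 17.1 and 18.7 CPM in blue-light A, B and C, against 16.4 and 16.5 CPM in natural-light A and B, with all 5 libraries close together (log2FC 0.14, edgeR adjusted p = 0.540). Mrap, which carries the ACTH receptor to the surface of fat and adrenal cells, was at 0.475, 0.354 and 0.637 CPM in blue-light A, B and C, against 0.171 and 0 CPM in natural-light A and B (edgeR adjusted p = 0.390). Apln, Nampt, Cdh13, Rbp4, Pparg, Lipe and Mrap were chosen after their values were seen.

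Brown fat markers gave 0 calls among 12 tested, with 2 higher and 1 lower before adjustment (p under 0.05), while DESeq2 called 1 and limma-voom 0. Ucp1, the uncoupling protein that defines brown fat cells, was close to 0 throughout, at 0.247, 0.102 and 0.330 CPM in blue-light A, B and C, against 0 and 0.0371 CPM in natural-light A and B (edgeR adjusted p = 0.242). Ucp1, counted among the 2 higher, passed the low-count filter through blue light alone, so its values do not support a change. Dio2, the deiodinase that activates thyroid hormone in many tissues, had a log2FC of 0.56 (edgeR adjusted p = 0.120). Precursor and fibroblast markers gave 0 calls among 12, with 0 at an unadjusted p under 0.05 and 0 in DESeq2 or limma-voom.

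Markers of other tissues of the orbit and of cells that share some of the 10 genes also varied between the libraries. The list level is the mean over its tested genes of log2 CPM after subtracting each gene's mean over the 5 libraries. For the 10 adipocyte genes it was 1.44, -0.38 and 1.15 in blue-light A, B and C, against -1.38 and -0.82 in natural-light A and B. For 12 macrophage markers it was 0.78, 0.16 and 0.27 in blue-light A, B and C, against -0.94 and -0.27 in natural-light A and B, which is the same order of libraries. Cidec, Lep and Pck1, which passed the low-count filter through blue light alone, enter the adipocyte level. Without them natural-light B would lie above blue-light B, so the shared order rests on these genes. The 12 macrophage markers summed to 270 to 415 CPM under blue light and to 134 to 196 CPM under natural light, none was at 0, and in edgeR 0 were called, with 8 higher before adjustment (p under 0.05), while DESeq2 called 7 and limma-voom 1. The macrophage protease gene Ctss stood at 56.1 to 93.6 CPM under blue light and at 12.6 to 25.3 CPM under natural light (edgeR adjusted p = 0.0649). Their part in the values of Fabp4, Lpl or any other of the 10 genes was not tested.

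Skeletal muscle markers, 16 genes that would come with the eye muscles, had levels of 0.73, -0.46 and -0.31 in blue-light A, B and C, against -0.83 and 0.87 in natural-light A and B. They summed to 2292 to 4883 CPM under blue light and to 2361 to 4829 CPM under natural light, so the groups overlapped, and the muscle level was highest in natural-light B. Among the adipocyte genes natural-light B lay above blue-light B for Adipoq, Fabp4, Plin1 and Retn. It lay below blue-light B for Cfd, Cidec, Plin4, Lpl and Pck1, and both were at 0 for Lep. The part of attached tissue in these values was not tested. Myh13, the myosin of eye muscles, was at 0 in natural-light A and at 13.5 CPM in natural-light B. No muscle marker was called in edgeR, DESeq2 or limma-voom, and 0 had an unadjusted p under 0.05. With the muscle level as a covariate the log2FC of Cfd was 2.55 and its edgeR adjusted p 0.0515. Endothelial markers summed to 532 to 578 CPM under blue light and to 418 to 449 CPM under natural light, and 0 of 12 were called in edgeR, with 1 higher at an unadjusted p under 0.05 and 1 call each in DESeq2 and limma-voom. That gene was Kdr, the VEGF receptor of endothelium, with a log2FC of 0.46 (edgeR adjusted p = 0.0501). The gap between the groups in the endothelial sum rested on Kdr, and without it the groups would overlap. None of the endothelial markers was at 0, and their part in the adipocyte gene values was not tested.

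Gland markers were examined because lipid-secreting glands adjoin the eye. The sebaceous and Meibomian list summed to 272, 146 and 235 CPM in blue-light A, B and C, against 132 and 132 CPM in natural-light A and B, again with A and C above B. The most abundant gene of the list in every library was Scd1, a desaturase also active in fat cells, at 189, 56.9 and 155 CPM in blue-light A, B and C, against 60.8 and 60.2 CPM in natural-light A and B (edgeR adjusted p = 0.322). The place of A and C above B in the list sum rested on Scd1. Without it blue-light B would have the highest sum of the 5 libraries. Scd1 was also chosen after its values were seen. Of the 10 tested genes of the list 0 were called in edgeR, with 2 higher and 1 lower before adjustment (p under 0.05), while DESeq2 called 1 and limma-voom 0. Of 10 lacrimal gland markers, Pip, Dcpp1 and Scgb2b20 were at 0 in all 5 libraries. The 7 tested gave 0 calls in edgeR, DESeq2 or limma-voom and 0 at an unadjusted p under 0.05, and the list summed to 428 to 480 CPM under blue light and to 413 to 504 CPM under natural light. Schwann cell and red blood cell markers gave 0 calls in edgeR and limma-voom among 10 and 8 tested genes, with 1 and 2 at an unadjusted p under 0.05 and 1 and 0 calls in DESeq2. All 10 markers of retina, pigment epithelium, lens and cornea were present, summing to 18353 to 20579 CPM under blue light and to 30535 to 33118 CPM under natural light. Of these 2 fell, both of rod photoreceptors.

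**Figure D3:**
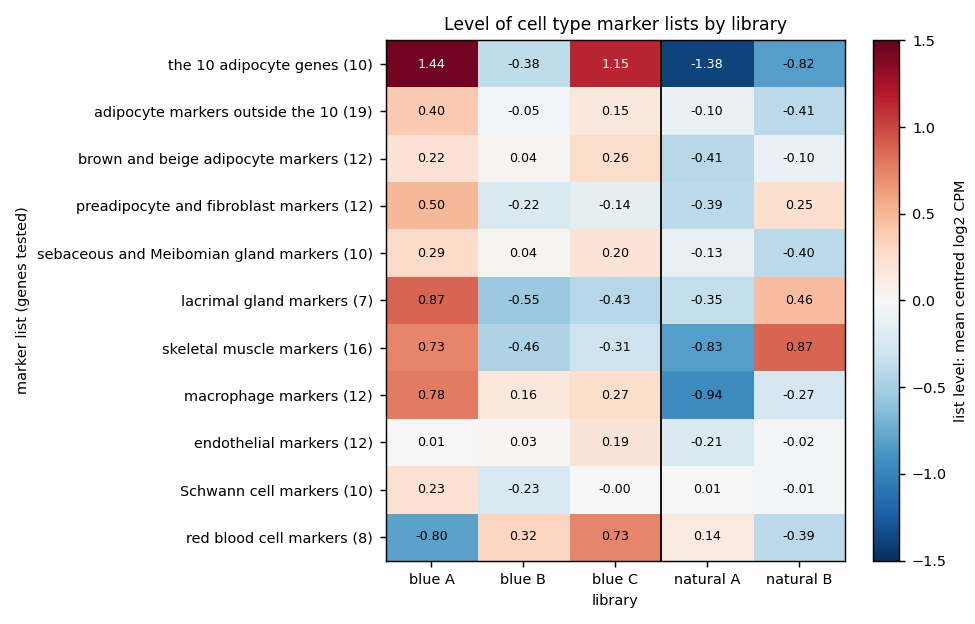
List level of the 10 adipocyte genes and of cell type marker lists (rows, number of tested genes in brackets) in the 3 blue-light and 2 natural-light libraries (columns), on a colour scale of mean centred log2 CPM. The adipocyte row is highest in blue-light A (1.44) and lowest in natural-light A (-1.38), the macrophage row has the same order, and the muscle row is highest in natural-light B. The adipocyte row includes Cidec, Lep and Pck1, which passed the low-count filter through blue light alone, and its order rests on them.

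Genes most like the 10 were sought among 14775 other tested genes with a mean of at least 1 CPM. Likeness was the root mean square difference, over the 5 libraries, between a gene's centred log2 CPM and the mean of the 10, so a smaller value means a closer profile. Its median over the compared genes was 1.12. Among the nearest were Lgals3bp (0.12), Gbp3 (0.17), Gbp6 (0.19) and Ifit3b (0.20). Lgals3bp, a secreted glycoprotein that binds galectin, stood at 203, 55.5 and 152 CPM in blue-light A, B and C, against 30.1 and 49.7 CPM in natural-light A and B, and edgeR did not call it (adjusted p = 0.204). Each of these 4 was nearer to the mean of the 10 than any of the 10 was itself, among which Cfd was nearest (0.45) and Cidec farthest (1.58). The 4 were picked for nearness among 14775 genes, so this was close to fixed by the choice and is no result about the 10. The mean also includes Cidec, Lep and Pck1, which passed the low-count filter through blue light alone.

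**Figure D4:**
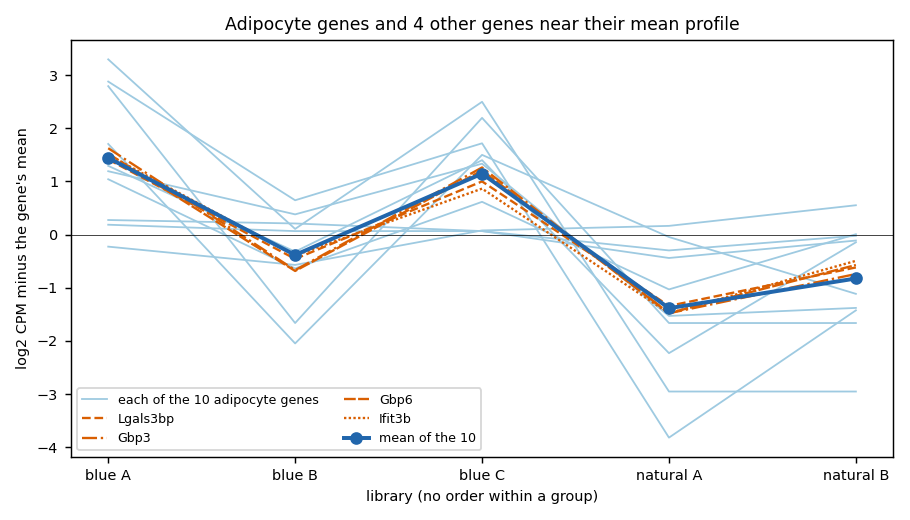
Centred log2 CPM (vertical axis) in the 5 libraries (horizontal axis, no order within a group) of the 10 adipocyte genes (pale lines), their mean (dark line) and 4 other genes near that mean (dashed or dotted). The mean is 1.44, -0.38 and 1.15 in blue-light A, B and C and -1.38 and -0.82 in natural-light A and B, and single adipocyte genes scatter widely around it. It includes Cidec, Lep and Pck1, which passed the low-count filter through blue light alone.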

How the data were processed

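The 5 mRNA libraries were analysed, and miRNA libraries were not used here. Per the labels' protocols, Trizol RNA was depleted of ribosomal RNA with probes, fragmented and copied from random primers. HISAT2, StringTie, bcl2fastq 2.0, limma, DESeq2 and mm10 are named, without roles, in the submitters' processing notes. The deposited values are taken as estimated counts per symbol, not normalised by the authors, and all are whole numbers, so rounding changed nothing. Over all libraries 1051, 806, 525, 422 and 371 values equal 4, 8, 12, 16 and 20, against 751, 577, 401, 338 and 277 at 1 unit less, so 1 fragment was taken as about 4 units. This is an estimate: 1107 values equal 5, and 758 and 856 equal 1 and 2, which is less than 1 such fragment. No value column was left unused.

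In R 4.3.3, edgeR 4.0.16 was run with filterByExpr (minimum count 10), TMM and no block, and log2 CPM had a prior count of 2. Alternatives included DESeq2 1.42.0 and voom in limma 3.58.1. The pipeline was tested on simulated counts. Intervals and floors cover counting error only. Members, lists and the likeness rule were chosen with earlier results of these data known. Named genes were the 10, called genes of each list or else up to 2 with the smallest p, plus those stated as chosen later, and some are not reported here. Positions and promoters come from RefSeq (GRCm38.p6). Python 3.11.15 with pandas 2.3.3 and matplotlib 3.10.9 drew the figures.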

Additional observations from a re-analysis of the deposited data

How the results depend on the processing

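Over all genes edgeR called 421. With library totals as the only scaling the count was 274, of which 45.3% were higher against 29.9% with TMM. DESeq2 called 1729, edgeR with the muscle level as covariate 661, and edgeR with the letters as a replicate block 0, with 1455 at an unadjusted p under 0.05. Without 1 library the count ran from 0 (natural-light B left out, 2872 at an unadjusted p under 0.05) to 311 (blue-light A left out), with 277, 11 and 8 without blue-light B, blue-light C and natural-light A. With 1 natural-light library left, it was assumed to vary like the blue-light libraries. Of the 10 adipocyte genes 1 was called. DESeq2 called 4. With a mean of at least 5 CPM 0 of the 2 genes left passed in edgeR, 1 of them having an unadjusted p under 0.05. Limma-voom called 0, with 5 at an unadjusted p under 0.05 (3154 over all genes), and edgeR with the replicate block 0, with 4. Without 1 library the count ran from 0 to 1, and it was 1 only without blue-light B. The cause of these shifts was not tested, beyond the smaller number of libraries or genes fitted.

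Cfd was also not called in limma-voom (adjusted p = 0.118) or with the replicate block (adjusted p = 0.390, log2FC 2.32). Every gene kept its sign in each alternative that gave a value, while 4 single-gene results gained a call and 7, all of Cfd, lost it. Natural-light A and B each move the count over all genes more than 1.5 times, as do blue-light B and C. The letters share no stated source, so they were not used to pair. Same-letter deviations from the group means correlated at -0.18 and -0.15 over genes. These values cannot test a shared source, because the deviations of the 2 natural-light libraries mirror each other. Leptin could not be fitted after division by 4, with a mean of at least 5 CPM, or without blue-light A or C, because it failed the filter. Differences in leptin, Ucp1 or Adrb3 are at the limit of this depth.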
